A study of Homo sapiens with 6 samples.

Results

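ATF4 and 6 transcription factors of its structural class, ATF5, ATF3, DDIT3, XBP1, JUN and JUND, were followed in MOLM14 cells after siRNA against ATF4. They were chosen by name, with earlier results of these data known. They are 7 of the 14884 genes that have a feature with 1 gene symbol. Each has 1 annotated feature, so no choice among features was needed, and all 7 are described whatever their level. MOLM14 is an established human acute myeloid leukaemia line with an activating FLT3 duplication. The cells grew in medium with serum and were electroporated with siRNA at 70 nM, either a commercial siRNA to ATF4 (siATF4, 3 arrays) or a non-targeting control pool that the labels also call scrambled (siCTRL, 3 arrays). The time between transfection and harvest is not given in the sources used here. All samples come from 1 cell line, and the labels call them technical replicates. A p-value here reflects just the spread among these arrays, and that spread may be technical.

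These proteins carry a basic region that contacts DNA and a leucine zipper through which they pair, so that the partner sets the sequence bound. ATF4 is controlled mainly at translation: when kinases phosphorylate the initiation factor eIF2, most protein synthesis slows while ATF4 mRNA is translated better, a programme called the integrated stress response. ATF4 then activates genes for amino acid supply and tRNA charging together with ATF5, ATF3 and DDIT3, which act downstream of it or beside it. XBP1 belongs to a separate branch of the response to misfolded protein in the endoplasmic reticulum (ER), in which the enzyme IRE1 splices its mRNA. JUN and JUND form the AP-1 factor with FOS proteins and can pair with ATF proteins. The arrays measured transcripts only, so translation, protein and XBP1 splicing were not measured.

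Values are those deposited, read as log2 since no source used here names the base, and differences are siATF4 minus siCTRL. Array medians lay between 3.88 and 3.96. Levels of different genes are not compared, because each comes from its own probes. For a typical gene the standard error (SE) of the difference was 0.15 (median). No gene passed limma's test at a Benjamini-Hochberg adjusted p of 0.05 (0.0% of 14884 genes), with or without the replicate number as a block (also 0.0%). An unadjusted p below 0.05 was reached by 218 genes (1.46%) without the block and 464 (3.12%) with it. The labelled cell was checked with 13 measured markers of a monocytic leukaemia line. On all 6 arrays LYZ read 8.33 or more and FLT3 8.19 or more, whereas the monocyte marker CD14, at 3.22 to 4.18, and the stem cell marker CD34 lay near the array medians. The arrays differed in ways the groups do not fully explain, and in bulk RNA fewer cells of a kind and less RNA per cell cannot be told apart. The myeloid enzyme MPO read 5.58, 8.45 and 10.45 on siATF4 replicates 1, 2 and 3. It read 9.11, 9.53 and 10.17 on siCTRL replicates 1, 2 and 3, a difference of -1.45 (SE 1.12) with overlap between the groups. The mean of 25 type I interferon response genes was 6.87, 6.02 and 5.24 on siCTRL replicates 1, 2 and 3 and 5.23, 6.18 and 5.24 on siATF4 replicates 1, 2 and 3.

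ATF4 mRNA was lower after its siRNA, with no overlap between the groups. It read 7.72, 7.88 and 8.14 after ATF4 siRNA (replicates in number order), against 8.67, 8.64 and 8.85 in the controls. The highest siATF4 value came from replicate 3, which was also the highest control. The difference was -0.80 (SE 0.14, 95% interval -1.14 to -0.47), which leaves 57.4% of the control level. Arrays of number 1, 2 and 3 differed by -0.94, -0.76 and -0.70, a narrow spread beside that of the other factors below. The gene ranked 2 of 14884 by limma's unadjusted p (0.000823, or 0.000448 with the replicate block) and 69 by how low its difference lay. Its adjusted p was 1.00 in both fits, and the two-sided exact permutation p of 0.1 is the smallest that 3 arrays against 3 can give. With each array left out in turn the difference stayed between -0.91 and -0.71.

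Among the 7 factors, ATF4 was the 1 without overlap between the groups. Of all genes tested, 2.59% had no overlap with siATF4 lower and 3.30% no overlap with siATF4 higher. The mean was lower for 6 of the 7 (46.2% of all genes), in every replicate number for ATF4 and XBP1 (9.20% of all genes). Unadjusted limma p-values below 0.05 were seen for ATF4 and ATF5. The median difference was -0.52 over the 7 factors and 0.01 over all genes.

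**Figure D1:**
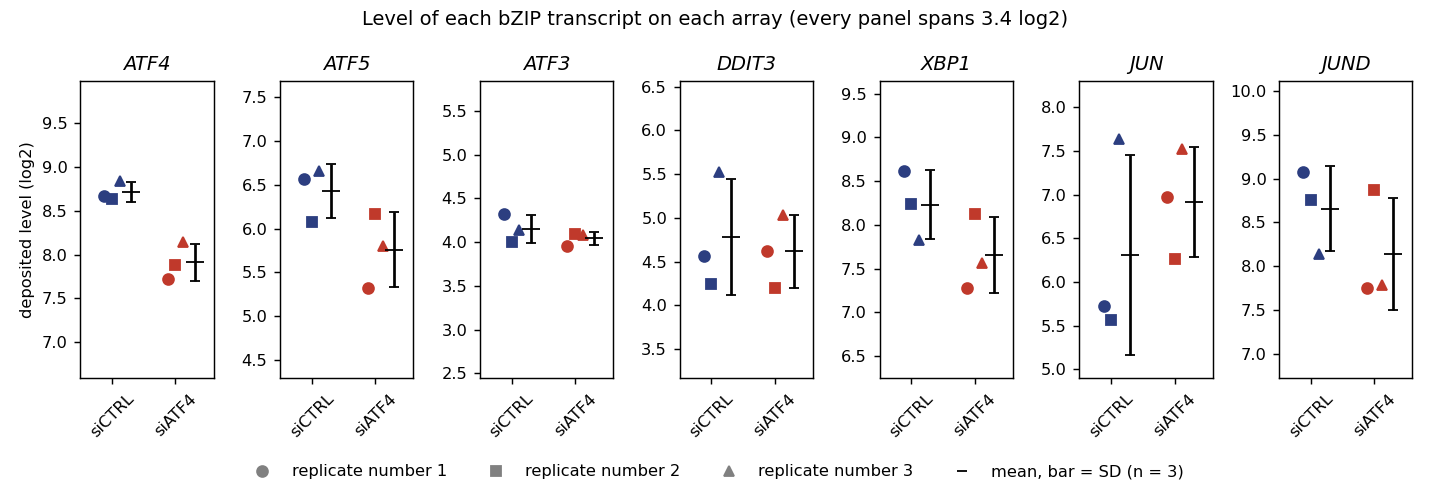
Deposited log2 level (vertical axis) of the 7 bZIP transcripts on the 3 siCTRL and 3 siATF4 arrays, with 1 panel per gene and the marker shape giving the replicate number; the horizontal tick is the mean and the bar the SD (n = 3). The ATF4 points of the 2 groups do not overlap, and for JUN the 2 arrays of number 3, at 7.52 and 7.63, are the highest of all 6.

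ATF5 is a close relative of ATF4 whose transcript is induced in the stress response and which is linked to mitochondrial protein stress. Its level was 5.32, 6.16 and 5.80 after ATF4 siRNA (replicates in number order), against 6.56, 6.08 and 6.66 in the controls. The groups overlapped through 1 pair, since siATF4 replicate 2 lay just above siCTRL replicate 2. The difference was -0.67 (SE 0.25, 95% interval -1.27 to -0.07). Limma gave an unadjusted p of 0.0326 (0.0400 with the replicate block) and an adjusted p of 1.00, and the exact permutation p was 0.2. By replicate number the differences were -1.25, 0.08 and -0.86. Without both arrays of number 2 the difference was -1.05, and without both of number 1 it was -0.39. Of 6 measured genes listed as ATF5 targets 4 were lower (46.2% of all genes), and none had an unadjusted limma p below 0.05. The largest difference was that of EGR1, an immediate early factor, at -0.46 (SE 0.89), which turned positive without siATF4 replicate 1 (0.46) and also without siCTRL replicate 3. The mitochondrial chaperones HSPD1 (-0.20, SE 0.12) and HSPA9 (-0.15, SE 0.10) were lower without overlap, as were 2.59% of all genes.

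ATF3, a repressor and activator induced by many stresses, was dim on all arrays. It read 3.96, 4.09 and 4.08 after ATF4 siRNA (replicates in number order), against 4.32, 3.997 and 4.14 in the controls, close to the array medians. The groups overlapped, and the highest value was that of siCTRL replicate 1. The difference was -0.11 (SE 0.12, 95% interval -0.40 to 0.18) with a limma unadjusted p of 0.402. By replicate number it was -0.36, 0.09 and -0.06. At this signal a change of ATF3 well inside that interval was not detectable.

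DDIT3, also called CHOP, promotes cell death under lasting ER stress and differs from the others in a basic region that binds typical sites poorly. Its level was 4.63, 4.20 and 5.03 after ATF4 siRNA (replicates in number order), against 4.57, 4.25 and 5.53 in the controls. Both arrays of number 3 were the highest of their group and both of number 2 the lowest, so the arrays ordered by replicate number and not by siRNA. The difference was -0.16 (SE 0.36, 95% interval -1.02 to 0.70), with a limma unadjusted p of 0.668, or 0.307 with the replicate block, which narrowed the interval to -0.52 to 0.20. By number the differences were 0.06, -0.05 and -0.50. The sign turned to 0.21 without siCTRL replicate 3 and to 0.05 without siATF4 replicate 2. Of 5 measured genes listed as DDIT3 targets 3 were lower. TRIB3, a pseudokinase and shared target of ATF4 and DDIT3, was at -0.80 (SE 0.41), with differences of -0.60, -0.77 and -1.03 by number, and had a limma unadjusted p of 0.0913, or 0.000876 with the replicate block. ERO1A, an ER oxidase, was at -0.32 (SE 0.28) and BCL2L11, a death-promoting BCL2 relative, at -0.20 (SE 0.29). Number 1 carried both, with ERO1A at -1.01, -0.08 and 0.13 and BCL2L11 at -0.89, -0.07 and 0.38 by number. ERO1A was at -0.016 without siATF4 replicate 1, BCL2L11 at 0.012 without siCTRL replicate 1 and TRIB3 at -0.38 without siCTRL replicate 3.

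Whether the ATF4 difference was unequal to those of the other factors was asked within each array, as ATF4 minus the other gene. The test was made for 6 pairs. The gap between ATF4 and ATF3 was 3.87 ± 0.17 with siATF4 and 4.57 ± 0.19 with siCTRL (SD, n = 3 each), lower by 0.69 without overlap (two-sided exact permutation p = 0.1). ATF3 read close to the array medians throughout, so this gap says nothing about how ATF3 itself responded. For DDIT3 the gap differed by -0.64 (exact permutation p = 0.2) and for JUN by -1.41 (exact permutation p = 0.2). Each of these 3 gaps was lower with siATF4 in all 3 replicate numbers. The gap differed by -0.13 for ATF5, -0.23 for XBP1 and -0.28 for JUND, with exact permutation p-values of 0.8, 0.6 and 0.7. After adjustment over the 6 pairs the exact permutation p-values were 0.4 for ATF3, DDIT3 and JUN and 0.8 for the other three. This exact test cannot go below 0.1 with 3 arrays against 3, and no fitted model of the gaps was run.

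XBP1 drives genes for folding, transport and degradation of ER proteins. It read 7.27, 8.13 and 7.56 after ATF4 siRNA (replicates in number order), against 8.62, 8.24 and 7.83 in the controls. In each replicate number the siATF4 array was the lower, though siATF4 replicate 2 lay above siCTRL replicate 3. The difference was -0.58 (SE 0.28, 95% interval -1.23 to 0.08), with a limma unadjusted p of 0.0763 (0.0620 with the replicate block) and an exact permutation p of 0.2. By number it was -1.34, -0.12 and -0.27, so most of the mean came from the arrays of number 1. Without both of them it was -0.19. The interferon genes differed between the same arrays by a median of -1.46 in number 1, 0.14 in number 2 and -0.02 in number 3. Their part in the XBP1 value was not tested.

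Genes of the IRE1 branch lay on both sides of 0. The list holds ER genes that XBP1 is known to control and also factors that act on XBP1 mRNA, IRE1 itself and the ligase factors RTCB, DDX1 and ZBTB8OS. Of 26 measured, 12 were lower and 14 higher, with a median difference of 0.02 and a range of -0.27 to 0.30. ERN1, which encodes IRE1, was at 0.30 (SE 0.19), the ER degradation factor DERL2 at 0.30 (SE 0.12, no overlap, as for 3.30% of all genes on that side) and the chaperone cofactor SDF2L1 at -0.27 (SE 0.14). A promoter window of XBP1 is shown because it holds the ER stress element through which XBP1 and ATF6 act. That element is CCAAT and CCACG in direct order with 9 bases between them. It is in capitals in the 250 bases before an annotated start (RefSeq, GRCh38.p14, chr22:28800570-28800819, minus strand).
XBP1: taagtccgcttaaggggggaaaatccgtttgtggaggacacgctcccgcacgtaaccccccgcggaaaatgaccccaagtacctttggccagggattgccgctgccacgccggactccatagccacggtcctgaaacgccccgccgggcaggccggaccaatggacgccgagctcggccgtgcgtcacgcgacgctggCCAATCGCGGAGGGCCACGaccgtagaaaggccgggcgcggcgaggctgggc
The element begins at position -52 from that start. The window of another annotated XBP1 start (chr22:28800078-28800327) lacked it. The element was found in 26 of 34943 promoter windows of this length (0.0744%) when both strands were searched. Of the genes tested, 11 had it, with a median difference of -0.06.

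JUN is the main activating subunit of AP-1 and an immediate early gene, induced within a short time of a signal. It was the 1 factor of the 7 with a higher mean on the siATF4 arrays. Its level was 6.97, 6.26 and 7.52 after ATF4 siRNA (replicates in number order), against 5.73, 5.57 and 7.63 in the controls. Both siATF4 arrays of numbers 1 and 2 lay above both siCTRL arrays of those numbers, and in number 3 both arrays were high. The differences by number were 1.24, 0.70 and -0.11. The mean difference was 0.61 (SE 0.59, 95% interval -0.79 to 2.01) with a limma unadjusted p of 0.335 and an exact permutation p of 0.5. With the replicate block the SE was 0.25, the interval -0.02 to 1.24, the limma unadjusted p 0.0548 and the adjusted p 1.00. When a whole replicate number was dropped, a choice made after seeing the data, the difference was 0.29 (number 1), 0.57 (number 2) and 0.97 (number 3), with limma unadjusted p-values of 0.723, 0.450 and 0.0120. The adjusted p in the last case was 0.986. With 1 array left out it ranged from 0.24 without siCTRL replicate 2 to 1.27 without siCTRL replicate 3.

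JUND is the steadily expressed member of the JUN family, often set against JUN in growth control. It read 7.75, 8.88 and 7.79 after ATF4 siRNA (replicates in number order), against 9.08, 8.76 and 8.13 in the controls. The siATF4 array of number 2 lay above 2 of the 3 controls, so the groups overlapped. The difference was -0.52 (SE 0.37, 95% interval -1.39 to 0.36) with a limma unadjusted p of 0.202, or 0.106 with the replicate block. By number it was -1.33, 0.12 and -0.35, and without both arrays of number 1 it was -0.12. As for XBP1, the interferon genes moved with that pair of arrays, and their part was not tested. JUNB, the remaining JUN gene, was at 0.00 (SE 0.17), with differences of -0.40, 0.33 and 0.07 by number.

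**Figure D2:**
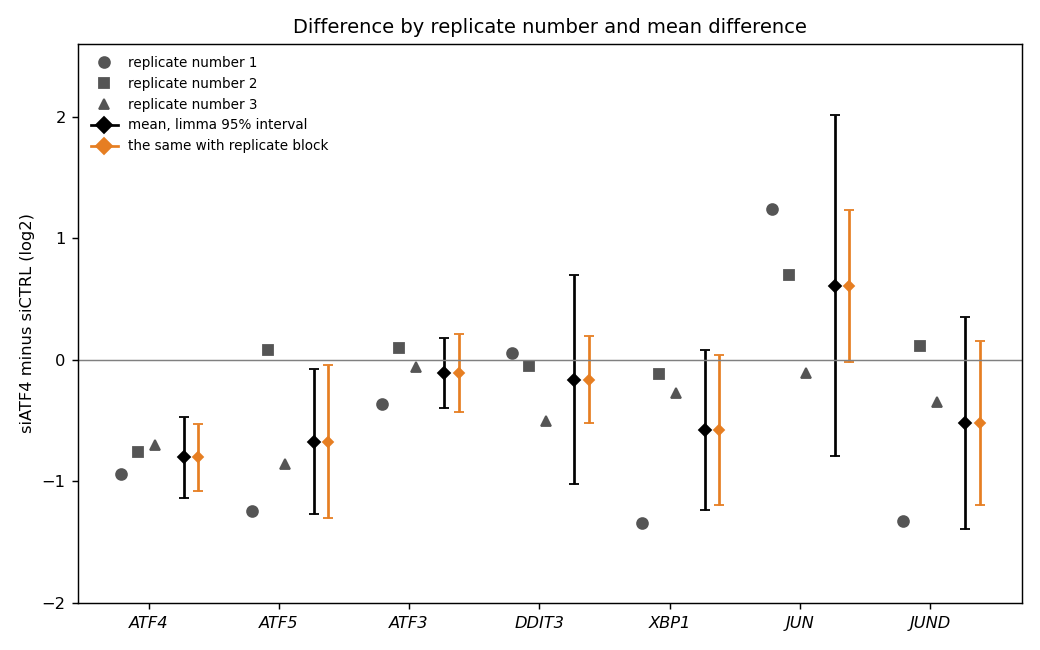
Difference in log2 level, siATF4 minus siCTRL (vertical axis), for each bZIP gene: grey markers are arrays of the same replicate number, the black diamond is the mean with limma's 95% interval and the orange diamond the same mean with the replicate block. ATF4 has a narrow spread (-0.94 to -0.70), whereas ATF5, XBP1 and JUND each have number 1 between -1.34 and -1.25 and number 2 between -0.12 and 0.12.

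Kinases and turnover factors of JUN had small differences that changed side with the replicate number. Of 16 measured members 14 had a higher mean and 2 lower, with a median of 0.10 and a range of -0.13 to 0.27, against 53.8% higher among all genes. The medians were 0.15, 0.21 and -0.06 in numbers 1, 2 and 3, and 3 of the 16 were higher in every number (14.4% of all genes). None had an unadjusted limma p below 0.05. The largest values were 0.27 (SE 0.21) for the kinase MAP3K11, 0.26 (SE 0.19) for the JNK phosphatase DUSP8 and 0.26 (SE 0.22) for DET1, a part of a ubiquitin ligase that degrades JUN. Of 13 measured genes listed as AP-1 targets 8 were lower and 5 higher, with medians of -1.22, 0.28 and -0.10 in numbers 1, 2 and 3. VEGFA, a blood vessel growth factor that is also an ATF4 target, was at -0.80 (SE 0.27) and the metallothionein MT2A at -0.87 (SE 0.38), both lower without overlap (2.59% of all genes). MT2A was at -0.40 without siATF4 replicate 1. The cyclin CCND2 was at -1.49 (SE 0.99), or -0.22 without siATF4 replicate 1.

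The promoters of JUN, ATF3 and JUND are shown as short stretches because each holds a sequence that these factors are known to bind. In capitals are TGACATCA, a variant to which JUN binds with ATF2, and TGACGTCA, the full cyclic AMP response element (RefSeq, GRCh38.p14; JUN at chr1:58784096-58784125, minus strand; ATF3 at chr1:212565273-212565302, plus strand; JUND at chr19:18281804-18281833, minus strand).
JUN: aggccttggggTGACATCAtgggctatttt
ATF3: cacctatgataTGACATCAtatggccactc
JUND: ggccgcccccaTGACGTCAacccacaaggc
Counted from the start, the JUN match begins at -67, the ATF3 match at -123 and the JUND match at -200. The window of another annotated ATF3 start (chr1:212614768-212615017) held no match. On both strands TGACATCA was found in 2.37% of all 34943 promoter windows and TGACGTCA in 1.63%. Windows of ATF5 and DDIT3 held the classical AP-1 site TGACTCA, in capitals below (ATF5 at chr19:49928707-49928735, plus strand, and DDIT3 at chr12:57520738-57520766, minus strand). The windows of other annotated ATF5 starts lacked it. As TGANTCA the site was found in 6.59% of windows.
ATF5: ggagagtgctgTGACTCAtgctggactct
DDIT3: gcgcgcgcgcaTGACTCAcccacctcctc
JUN, with TGACATCA, had a higher mean on the siATF4 arrays, while the means of ATF3, which shares that site, and of ATF5, DDIT3 and JUND were lower. Genes tested had a median difference of 0.00 with TGACATCA (274 genes), 0.02 with TGACGTCA (292 genes) and 0.01 with TGANTCA (759 genes), beside 0.02 for genes without each. These matches describe letters in the window and show no binding.

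The remaining genes of the bZIP class were measured to see how wide the differences ran. Of 47 others listed, 31 had a feature with 1 gene symbol: 16 were lower and 15 higher. The median was -0.00 and the range -0.36 to 0.24. Some read close to the array medians, such as MAF, HLF, TEF and CREB3L1, and a change in those may not have been detectable. None was called (0.0% of all genes), and 1 had an unadjusted limma p below 0.05 (1.46% of all genes). This was JDP2, a repressor that pairs with JUN and ATF3 and is a known ATF4 target. JDP2 read 4.71, 4.51 and 4.52 after ATF4 siRNA (replicates in number order), against 4.86, 4.86 and 5.09 in the controls. It was the 1 gene of the 31 without overlap between groups, where 2.59% of all genes were lower and 3.30% higher without overlap, so this count is near the share of all genes. The difference was -0.36 (SE 0.12) with a limma unadjusted p of 0.0220 (0.0312 with the replicate block) and an adjusted p of 1.00. By number it was -0.15, -0.35 and -0.57.

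The CREB and ATF1, ATF2, membrane-bound and MAF families had small mean differences. CREB1 was at 0.05 (SE 0.10), CREM at -0.15 (SE 0.16), ATF2 at 0.13 (SE 0.12) and CREB5 at -0.00 (SE 0.22). Among 7 membrane-bound factors, which are cut free by proteases in the Golgi, ATF6, the third sensor of ER stress, was at -0.20 (SE 0.15), CREB3L1 at -0.05 (SE 0.12) and CREB3 at 0.05 (SE 0.26). The 5 MAF genes measured ranged from -0.06 for MAF to 0.10 for MAFA. MAF, MAFF and CREB3L1 read close to the array medians, so their small values say little. The 3 measured NFE2 relatives were NFE2L3 at -0.20 (SE 0.65), the oxidative stress regulator NFE2L2 at -0.07 (SE 0.25) and NFE2L1 at -0.03 (SE 0.15). The largest value in the positive direction was 0.24 (SE 0.23) for CREBRF, a negative regulator of ER stress signalling. No CEBP gene, the partners of ATF4 at its classical element, had a feature with 1 gene symbol, so that family was not analysed here.

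**Figure D3:**
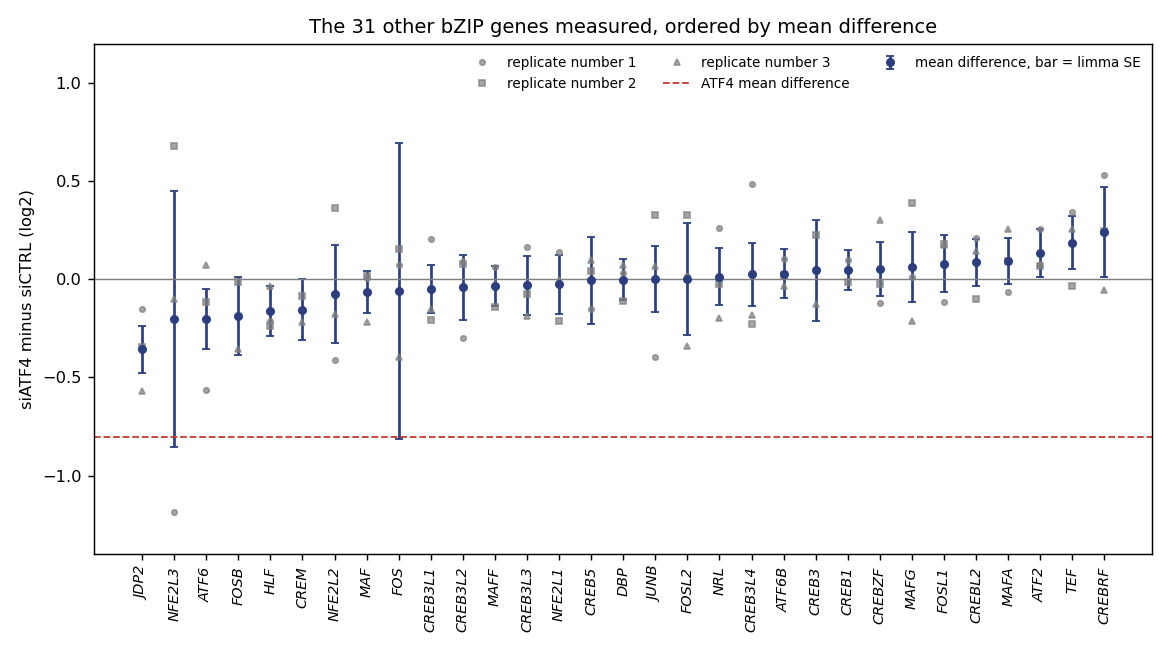
Difference in log2 level, siATF4 minus siCTRL (vertical axis), for the 31 other bZIP genes in order of their mean; blue points are means with limma's SE, grey markers the 3 replicate numbers and the dashed line the ATF4 mean of -0.80. All 31 means lie above the dashed line, JDP2 at -0.36 the nearest to it. Dim genes such as MAF and HLF are among the 31, and a small difference of those says little.

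The element through which ATF4 acts with CEBP partners is shown for JDP2 beside 2 classical ATF4 targets, the asparagine synthetase ASNS and the alanyl-tRNA synthetase AARS1. Capitals mark TGATGNAA, or its complement where the match lies on the other strand (RefSeq, GRCh38.p14; JDP2 at chr14:75427995-75428021, plus strand; ASNS at chr7:97872458-97872487, minus strand; AARS1 at chr16:70289675-70289704, minus strand).
JDP2: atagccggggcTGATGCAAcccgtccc
ASNS: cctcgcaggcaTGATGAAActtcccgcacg
AARS1: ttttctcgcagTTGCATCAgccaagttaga
ATF3: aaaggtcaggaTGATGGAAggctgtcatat
The ATF3 match is at chr1:212565205-212565234, plus strand, and is the 1 match among the 7 factors. The window of another annotated ATF3 start held none. Of 10714 tested genes with a promoter window, 303 (2.83%) held the element. It was found in 4 of 15 such genes on a list of ATF4 targets for amino acid supply and tRNA charging (26.7%) and in 2 of 8 on a list of other ATF4 targets. The groups did not overlap, with siATF4 lower, for 3.96% of the 303 genes with the element and 2.32% of those without. The 3.96% includes AARS1, GARS1, IARS1 and JDP2, which are on those lists, while the list genes ASNS and FGF21 overlapped. This share is therefore not separate from the lists. The medians were 0.01 and 0.02.

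The ATF4 targets themselves were counted for comparison with ATF4 across the replicate numbers. Of 21 measured genes for amino acid supply and tRNA charging 19 were lower, 11 of them without overlap, with a median of -0.44. Of 10 other ATF4 targets all were lower, 4 without overlap, with a median of -0.48. Among all genes 46.2% were lower and 2.59% were lower without overlap. Neither list had a called gene in limma (0.0% of all genes). An unadjusted limma p below 0.05 was seen for 10 and 3 members (1.46% of all genes), or 14 and 6 with the replicate block (3.12% of all genes). By replicate number the medians of the first list were -0.32, -0.24 and -0.79, where ATF4 differed by -0.94, -0.76 and -0.70. The pair of arrays with the smallest ATF4 difference thus had the largest median difference of these targets. The ATF4 differences by number were close to each other and rest on pairing by number, so their order carries little weight. The pair of number 3 holds a high control array, whose part was not tested. The mean level of the first list was 7.73, 7.61 and 8.17 on siCTRL replicates 1, 2 and 3. On siATF4 replicates 1, 2 and 3 it was 7.44, 7.35 and 7.49. For the second list the means were 6.08, 5.95 and 6.42 on siCTRL and 5.37, 5.71 and 5.59 on siATF4. The genes whose levels followed ATF4 most closely over the 6 arrays were MARS1 and WARS1, which charge tRNAs with methionine and tryptophan, the adhesion protein FLRT1, the choline phosphotransferase CHPT1 and the mitochondrial enzyme SHMT2. Likeness was the root mean square distance between log2 profiles centred on the siCTRL mean, among 7441 genes at or above the median level. It was 0.15 for MARS1, 0.17 for FLRT1, 0.19 for WARS1, 0.21 for CHPT1 and 0.22 for SHMT2. Their differences ran from -0.67 for MARS1 to -0.56 for CHPT1, a likeness to ATF4 that the choice itself brings.

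**Figure D4:**
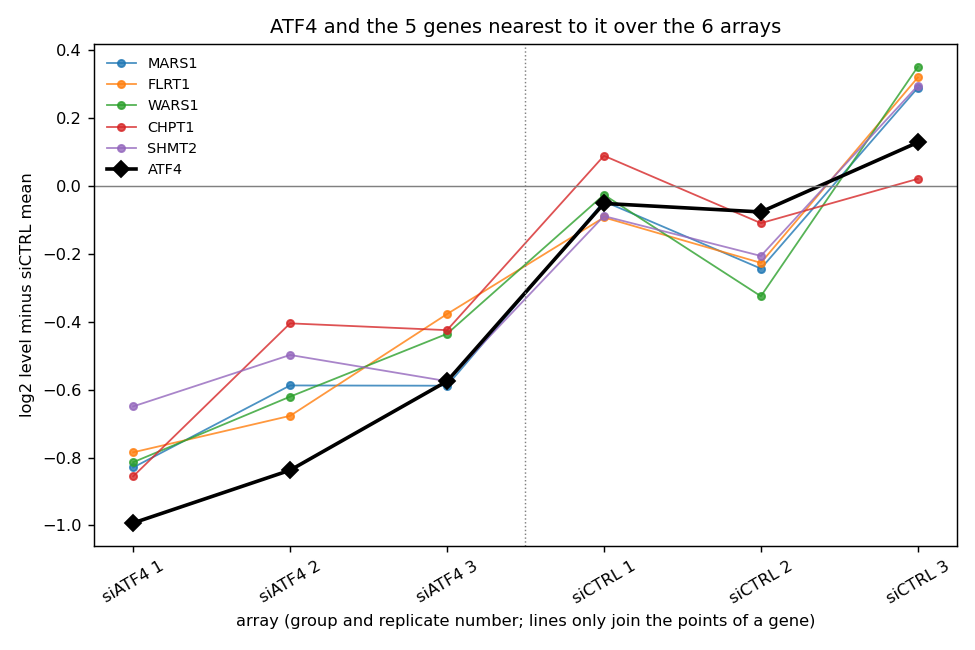
Log2 level minus the gene's siCTRL mean (vertical axis) on each of the 6 arrays (horizontal axis) for ATF4 and the 5 genes with the smallest root mean square distance to it; lines only join the points of a gene. All siATF4 points lie below all siCTRL points of the same gene, and siCTRL replicate 3 is the highest array for ATF4, MARS1, FLRT1, WARS1 and SHMT2. The 5 genes were chosen for their likeness to ATF4 on these same arrays, so both traits largely follow from the choice.

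The genes nearest to the other factors were not ATF4 targets on the lists used. Those lists hold just 21 and 10 measured genes of 14884, so no contrast with ATF4 is drawn from this. For ATF5 they were MCEMP1 (distance 0.16), CST7 (0.19) and LHFPL6 (0.19), for DDIT3 UBE2S (0.07), SRXN1 (0.08) and NRF1 (0.11), and for XBP1 NCOA7 (0.10), UBASH3B (0.11) and PTK2 (0.12). JUN lay nearest to RGS18 (0.23), WDR54 (0.24) and SESTD1 (0.28), and JUND to CAMK1D (0.09), HMX3 (0.11) and ARHGEF12 (0.12). For ATF3, whose profile was almost flat, the distances were 0.03 for NDUFAF7, 0.04 for FEM1C and 0.04 for ICAM3, over 7442 genes.

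The upstream kinases and the factors that act on ATF4 protein had no called member, where 0.0% of all genes were called. Of 9 measured genes for eIF2 kinases and related factors 4 were lower and 5 higher, with a median of 0.08. IMPACT, an inhibitor of the amino acid sensing kinase GCN2, was at 0.28 (SE 0.11), with no overlap (3.30% of all genes on that side) and a limma unadjusted p of 0.0444. EIF2AK1, the heme-regulated eIF2 kinase, was lower without overlap (2.59% of all genes), at -0.11 (SE 0.09). GCN1, which activates GCN2, was at -0.30 (SE 0.22). The double-stranded RNA sensor EIF2AK2, itself an interferon gene, was at -0.36 (SE 0.37, or -1.47, 0.14 and 0.24 by number). The 6 measured modifiers of ATF4 protein ranged from -0.19 for the prolyl hydroxylase EGLN1 to 0.15 for the ubiquitin ligase subunit FBXW11.

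Replicate number 3 stood apart from numbers 1 and 2 in both groups for genes of several kinds, FOS among them. None of the 7 factors was at least 1 log2 above or below in both groups. In number 3 JUN was higher than the mean of the other numbers by 1.98 on siCTRL and 0.90 on siATF4. For DDIT3 the values were 1.12 and 0.62. On siATF4 replicates 1, 2 and 3 JUN read 6.97, 6.26 and 7.52, so numbers 1 and 2 also differed. FOS, the main partner of JUN, went the other way. It read 6.66, 6.74 and 4.40 on siATF4 replicates 1, 2 and 3 and 6.59, 6.58 and 4.79 on the siCTRL arrays. FOS differed by -0.06 (SE 0.75) between siATF4 and siCTRL, so the shift with the number was far wider than that with the siRNA. NFE2L3 in number 3 stood at -1.42 from the others on siATF4 and -1.58 on siCTRL, and JUND at -0.53 and -0.79. The siATF4 value for JUND came from replicate 2, which read 8.88 against 7.75 and 7.79 in replicates 1 and 3. Other AP-1 genes shifted less, with JUNB at -0.10 on siATF4 and -0.20 on siCTRL and FOSL1 at 0.34 and 0.20. EGR1 was higher in number 3 by 2.40 on siATF4 and 1.69 on siCTRL, so these genes did not shift one way. FOS and NFE2L3 were the 2 of 31 other bZIP genes at least 1 log2 below in number 3 in both groups, where 0.779% of all genes were, and 0.967% of all genes were that far above. Of 25 measured interferon genes 9 were that far below in both groups, as were 5 of 13 markers of the labelled cell. FOS, NFE2L3, EGR1, JUNB and FOSL1 were singled out after their values were seen.

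**Figure D5:**
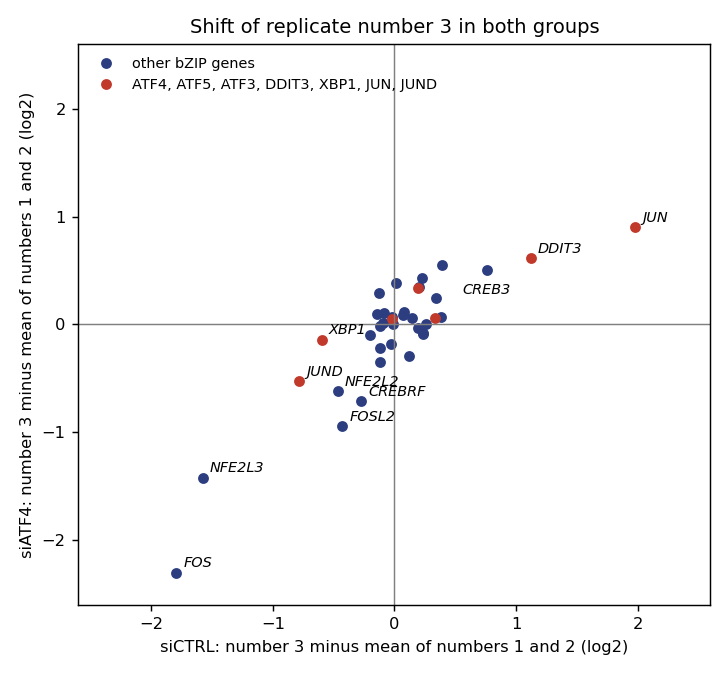
Log2 level of replicate number 3 minus the mean of numbers 1 and 2, on the siCTRL arrays (horizontal axis) and the siATF4 arrays (vertical axis), for 31 other bZIP genes (blue) and the 7 factors (red). JUN and DDIT3 lie at the upper right, and FOS and NFE2L3 at the lower left.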

How the data were processed

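Total RNA (100 ng per sample) was made into biotin-labelled cRNA with a whole-transcript kit and read on arrays, as the labels' protocols state. The deposited table holds 1 value for 53617 features on 6 arrays, read as log2 and as already normalized by the authors. Per the submitters' processing notes Partek was used, while background correction, normalization and the base of the logarithm are not given in the sources used here. Of these features 16098 had 1 gene symbol, and features with no symbol or several were left out of the gene table. The brightest feature stood for a gene, which left 14884 genes. No filter on level was applied.

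Groups came from the labels. Limma 3.58.1 (R 4.3.3) compared the groups for every gene with no covariate, p-values were adjusted by Benjamini-Hochberg across the 14884 genes, and the procedure was tested on simulated data. Deviations of arrays of the same replicate number correlated at 0.20, 0.40 and 0.62, each over the limit of 0.1. The numbers were therefore taken as pairs, from the data, just for the differences by number and the block fits. The main fit and its intervals are unpaired. SiATF4 replicate 2 correlated with siCTRL replicate 1 at 0.48, above the same-number values of 0.20 and 0.40. The data therefore do not settle the pairing of numbers 1 and 2, on which the differences by number and the block fits rest. Fits with the number as a block are given beside the main ones. The exact permutation test compared 3 arrays with 3.

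The members and lists were chosen with earlier results of these data known. Lists have counts and medians and no set test. The genes named were the 7 factors, the 3 largest differences (in size) of a list or family where the text describes it, and the genes nearest in profile (5 for ATF4, 3 for others). Promoter windows are the 250 bases before RefSeq starts. A gene with several starts has several windows and was counted as holding a motif if any of them did. TGACATCA and the spaced CCAAT and CCACG were added after the sequences were seen.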

Additional observations from a re-analysis of the deposited data

How the results depend on the processing

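Settings tried were array weights, a trended and robust variance prior, the replicate block, median centring, quantile normalization, a filter on dim genes, averaged features, testing of all features, an adjusted threshold of 0.01 and the omission of each array. Leaving out both arrays of a replicate number was chosen after seeing the data. Under each of these, 0 genes passed the adjustment. ATF4 kept its direction in all 17 alternatives run for it, between -0.91 and -0.71. The replicate block, the variance prior, the filter on dim genes, averaged features and testing of all features could not move a factor's difference. Each factor has 1 feature and the groups are of equal size, so those settings bear on p-values and not on direction. No gene was called with the block or without it. ATF5, XBP1, JUN and JUND also kept their direction in all 17, over ranges of -1.05 to -0.39, -0.81 to -0.19, 0.24 to 1.27 and -0.89 to -0.12. DDIT3 turned to 0.21 without siCTRL replicate 3, to 0.047 without siATF4 replicate 2 and to 0.0066 without both arrays of number 3, with a lowest value of -0.43. ATF3 turned to 0.018 without both arrays of number 1, with a lowest value of -0.21 without both of number 2. The cause was not tested. Over the 31 other bZIP genes 14 to 18 had a lower mean, with medians from -0.04 to 0.03. The number of arrays limits the precision, and signal over background was not analysed here.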
